A study of Mus musculus with 25 samples.

Results

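Liver RNA from mice given caffeine on top of sorafenib (DEN_CAF_SOR, 5 libraries) was set against liver RNA from mice given sorafenib without caffeine (DEN_SOR, 4 libraries). The libraries were taken by their group and replicate names, with no measured value used, and make up 9 of the 25 libraries sequenced. The other 16 libraries come from mice given the carcinogen and caffeine (DEN_CAF, 5), the carcinogen without either drug (DEN, 6) and no carcinogen (Untreated, 5). By their labels all were males of C3H/HeJ, an inbred strain prone to liver tumours, 5 weeks old at the start. However, Untreated 3, 4 and 5 carried 22879, 29770 and 13370 reads of Xist, an RNA expressed in females.

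DEN_CAF_SOR mice received diethylnitrosamine (DEN), an alkylating liver carcinogen, and later caffeine at 50 mg/kg by gavage 3 times a week together with sorafenib at 30 mg/kg by gavage 2 times a week. DEN_SOR mice received the same carcinogen and sorafenib, with the vehicle in place of caffeine. Caffeine was dissolved in tap water and sorafenib in corn oil with 2% DMSO, and the drugs were given in the morning on different weekdays. The carcinogen was injected into the abdomen at 25 mg/kg, 2 times a week for 3 weeks followed by a week of rest, in 5 cycles over 4 months. A month without treatment preceded the 3 weeks of drugs. Per the labels, 6 mice were allocated to each group and each library comes from 1 mouse. Both groups therefore had carcinogen-injured livers and received the kinase inhibitor, so neither shows what caffeine does in healthy liver. Whether a piece of liver held a visible tumour, and the hour at which it was taken, are not stated in the labels.

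Caffeine is a methylxanthine that blocks adenosine receptors and, at high concentration, inhibits cyclic nucleotide phosphodiesterases and releases calcium from internal stores. In liver it is demethylated mainly by Cyp1a2 and is known, from rodent and cell models, for lowering hepatic fat and for inducing autophagy. Sorafenib inhibits RAF kinases and the receptors for vascular endothelial growth factor and platelet-derived growth factor, which puts endothelial and stellate cells among its targets beside tumour cells. It also activates the integrated stress response, in which phosphorylated eIF2 alpha favours the transcription factor ATF4 and its target genes.

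The 9 livers had 17978389 to 21992613 assigned reads per library in DEN_CAF_SOR and 14750278 to 20107029 in DEN_SOR. The means differed by 1.53e+06 reads (exact permutation test, two-sided, p = 0.349), beside an SD of 1.56e+06 in DEN_CAF_SOR and 2.24e+06 in DEN_SOR. Summed FPKM (reads scaled to gene length and library size) of 10 hepatocyte markers was 47491 to 58201 in DEN_CAF_SOR and 42178 to 46391 in DEN_SOR, with Alb abundant in every library of this tissue labelled liver. The ranges of the hepatocyte sum do not overlap, and the part of this in the results below was not tested. Libraries numbered 3 and 4 carried more mitochondrial reads than the others in both groups: 15.7% and 18.7% against 5.65% to 8.07% in DEN_CAF_SOR, and 13.6% and 34.8% against 7.35% and 7.43% in DEN_SOR. No label gives a reason for that split. DEN_SOR 1 and DEN_CAF_SOR 3 also stood apart in groups of genes described below. In whole liver, fewer cells of a type and less RNA per cell cannot be told apart.

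No gene passed the test when caffeine was added to sorafenib. Of 12685 genes tested with limma, 0% had an adjusted p at or under 0.05, and the smallest adjusted p was 0.971. At an unadjusted p under 0.05, 535 genes (4.22%) differed (1028 without DEN_SOR 2), 299 of them (2.36%) higher in DEN_CAF_SOR and 236 (1.86%) lower. That split depended on scaling: with median-of-ratios size factors 239 were higher and 288 lower, and with library totals without mitochondrial reads 157 were higher and 353 lower. edgeR also called 0 genes (548 at unadjusted p under 0.05), and DESeq2 called 1, Ighg1 (672 at unadjusted p under 0.05). A difference is given throughout as the mean of log2(FPKM + 1) in DEN_CAF_SOR minus that in DEN_SOR, with its standard error (SE) from limma. Genes named as having an unadjusted p under 0.05 had an adjusted limma p of 0.971 or more like all others, so none named below was called by limma. The typical gene had an SE of 0.20 on this scale (median over all genes), which sets how small a difference could be seen. Over all genes the median difference was 0.04, with 57.6% of genes higher in DEN_CAF_SOR and 42.4% lower. Some list medians of up to 0.09 in size changed sign with another scaling, so medians that small are given as values with no direction. In 79 genes (0.623%) every DEN_CAF_SOR library stood above every DEN_SOR library, and in 69 (0.544%) every one stood below, 1.17% together. Shuffled labels would separate 5 from 4 libraries of a gene with a probability of 0.0159, so this share is not above that. Genes named below for a small p are prone to such separation, which is therefore given as a description and not as further support.

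For genes that handle caffeine or respond to it directly, list medians lay near the 0.04 of all genes, while single members ranged more widely. Of the 11 tested genes of caffeine metabolism and aryl hydrocarbon receptor targets, 9 were higher and 2 lower in DEN_CAF_SOR. Their differences ran from -0.37 to 0.56 with a median of 0.09, and 1, Nat2, had an unadjusted p under 0.05. Cyp1a2, the main caffeine demethylase (GRCm39 9:57584220-57590986, minus strand), had an FPKM of 214, 262, 109, 206 and 323 in DEN_CAF_SOR, against 132, 194, 195 and 139 in DEN_SOR. The groups overlapped, the difference was 0.37 ± 0.66 (SE), and its 95% interval ran from -0.99 to 1.73. It was 0.60 without DEN_CAF_SOR 3 and 0.21 without DEN_CAF_SOR 5. Nat2, an arylamine N-acetyltransferase, had an FPKM of 15, 22.8, 14.4, 12.2 and 22.9 in DEN_CAF_SOR, against 11.5, 15.1, 9.67 and 12.6 in DEN_SOR, a difference of 0.45 ± 0.22. Adora1, the adenosine receptor that lowers cAMP, differed by -0.06 (95% interval -0.61 to 0.48).

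Of 12 tested genes of adenosine receptors and turnover, 5 were higher and 7 lower in DEN_CAF_SOR, with a median of -0.06. Ada, the deaminase that turns adenosine into inosine (2:163568504-163592159, minus strand), was the member with an unadjusted p under 0.05. Its FPKM was 1.27, 1.42, 1.52, 1.70 and 1.45 in DEN_CAF_SOR, against 0.663, 1.07, 1.05 and 0.845 in DEN_SOR. Every DEN_CAF_SOR library stood above every DEN_SOR library, by 0.38 ± 0.14. Of 8 phosphodiesterase genes 3 were higher and 5 lower (median -0.09), and Pde7a, which hydrolyses cAMP, was lower (-0.37, and -0.17 without DEN_SOR 1). The 16 genes of cAMP and PKA signalling had a median of 0.03. Among them Sik1, a kinase gene that cAMP induces through CREB, had an FPKM of 6.62, 4.33, 7.67, 3.38 and 7 in DEN_CAF_SOR and of 33.4, 7.73, 19.5 and 6.23 in DEN_SOR. DEN_SOR 1 and DEN_SOR 3 were well above the rest, DEN_SOR 4 lay inside the DEN_CAF_SOR range and DEN_SOR 2 just above it. The difference was -1.14 ± 0.52 (-0.73 without DEN_SOR 1).

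Sorafenib's own handling and target genes were as mixed. The 18 tested genes of sorafenib conjugation and transport had a median difference of 0.04, and 13 genes of its target kinases and their ligands had one of 0.08, with 8 higher and 5 lower in DEN_CAF_SOR. Cyp3a13, a cytochrome P450 of the family that oxidises sorafenib, had an FPKM of 18.7, 14.2, 17.9, 11.1 and 23.3 in DEN_CAF_SOR, against 49.2, 34.8, 26.6 and 24.7 in DEN_SOR. All 5 DEN_CAF_SOR livers lay below all 4 DEN_SOR livers (-0.94 ± 0.39). Its relative Cyp3a11 differed by 0.72 ± 0.83, a value that ran from 0.0084 without DEN_SOR 4 to 1.21 without DEN_SOR 3. In the target list Kdr, described with the endothelial genes, and Pdgfa, a platelet-derived growth factor chain (-0.47 ± 0.22), had an unadjusted p under 0.05. Of 13 genes of MAPK output, downstream of RAF, 11 were lower (median -0.14), while Dusp1, a phosphatase gene among the immediate early genes that shuts MAP kinases off, was higher by 1.19 ± 0.41.

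**Figure D1:**
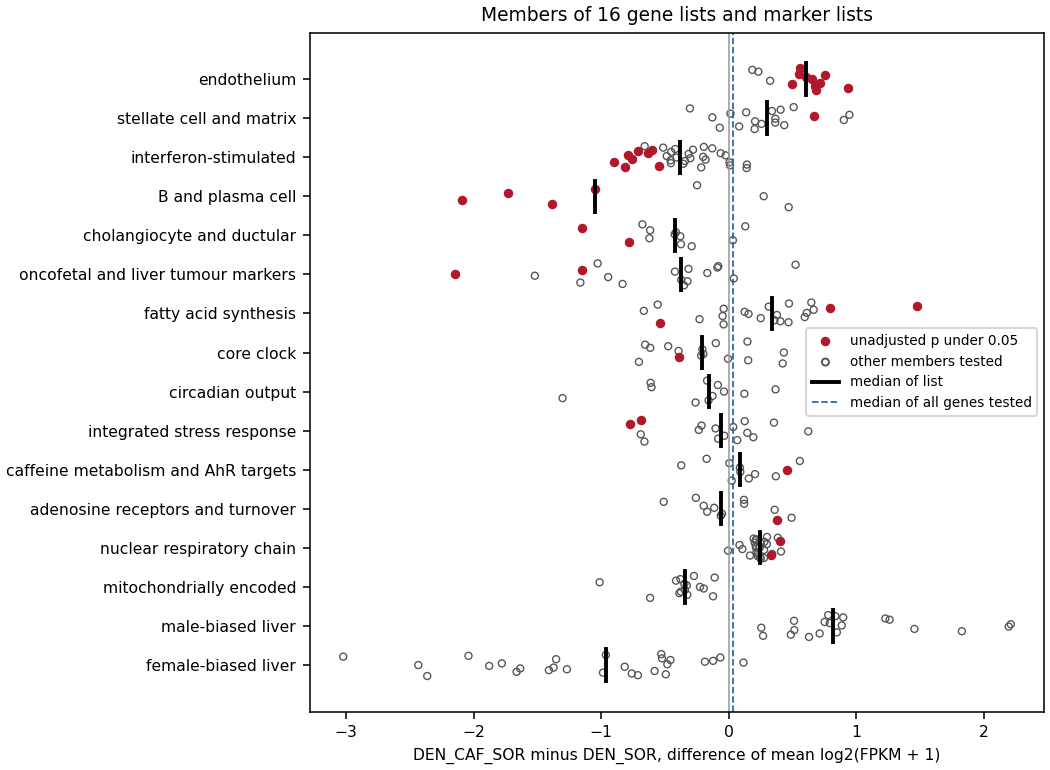
Log2 differences, DEN_CAF_SOR minus DEN_SOR, of log2(FPKM + 1) for each tested member of 16 gene lists, 1 point per gene; red points have an unadjusted limma p under 0.05, black bars mark the list median and the dashed line the median of all genes (0.04). Endothelial members lie to the right of the dashed line, most interferon-stimulated members to the left, and no point was called after adjustment.

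Scd1 stood higher in every liver given caffeine with sorafenib. It encodes the stearoyl-CoA desaturase that makes oleate and palmitoleate (19:44382894-44396318, minus strand). Its FPKM was 1036, 813, 394, 360 and 681 in DEN_CAF_SOR, against 112, 280, 266 and 267 in DEN_SOR. Every DEN_CAF_SOR liver stood above every DEN_SOR liver, and DEN_SOR 1 was lowest of the 9. The difference was 1.48 ± 0.42 (95% interval 0.60 to 2.35). It was 1.16 without DEN_SOR 1, 0.50 within the libraries numbered 3 and 4 and 2.23 within the others, so its size differed with the library numbers while its direction did not.

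The other genes of fatty acid synthesis did not move as a block with Scd1. Of 22 tested members 15 were higher in DEN_CAF_SOR and 7 lower, with a median of 0.34. Pklr, the liver pyruvate kinase that feeds lipogenesis, was higher by 0.79 ± 0.32, with 59.0 FPKM in DEN_CAF_SOR 3, 15.2 to 26.4 in the other 4 DEN_CAF_SOR libraries and 9.08 to 18.1 in DEN_SOR (0.48 without DEN_CAF_SOR 3). Fasn, the fatty acid synthase, was at 30.4, 16.2, 55.5, 19.3 and 16.6 FPKM in DEN_CAF_SOR and at 11, 18.7, 14.1 and 21.1 in DEN_SOR, which overlap (0.61 ± 0.40, and 0.32 without DEN_CAF_SOR 3). Acaca, the acetyl-CoA carboxylase of cytosolic lipogenesis, and Elovl6, an elongase, differed by -0.04 and -0.05. Acacb, the carboxylase at the mitochondrial surface that restrains fatty acid oxidation, was lower (-0.54 ± 0.25). None of 25 genes of fatty acid oxidation and PPAR alpha targets (median 0.03) or of 24 genes of cholesterol synthesis (median -0.04) had an unadjusted p under 0.05.

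Genes of glucose use gave a mixed picture. Of 18 tested genes of gluconeogenesis and glycogen 10 were higher in DEN_CAF_SOR and 8 lower (median 0.09), and 3 had an unadjusted p under 0.05. Ppp1r3c, which targets protein phosphatase 1 to glycogen, was at 11.6, 17.5, 19.5, 9.41 and 26.0 FPKM in DEN_CAF_SOR, against 2.89, 5.70, 10.1 and 9.31 in DEN_SOR (1.19 ± 0.50). Its difference for DEN_CAF minus DEN was -0.80. Ppargc1b, a coactivator of mitochondrial and lipogenic genes, was lower (-0.39 ± 0.14). Pck1, the enzyme that commits to gluconeogenesis, was at 190, 190, 496, 147 and 580 FPKM in DEN_CAF_SOR and at 475, 738, 510 and 92.1 in DEN_SOR, which overlap (-0.39 ± 0.86, from -1.04 without DEN_SOR 4 to -0.0441 without DEN_SOR 2).

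Atg14, Sesn2 and Trib3, genes of autophagy and nutrient stress, were lower in every liver given caffeine with sorafenib than in any given sorafenib without it. These genes were named for small p-values, which favours such separation, and 0.544% of all genes lay the same way. Atg14, a subunit of the lipid kinase complex that starts autophagosomes (14:47778350-47808106, minus strand), had an FPKM of 3.51, 3.48, 2.41, 2.86 and 4.02 in DEN_CAF_SOR, against 4.55, 4.95, 5.34 and 6.99 in DEN_SOR. The groups did not overlap and differed by -0.60 ± 0.14, by -0.97 within the libraries numbered 3 and 4 and by -0.30 within the others. It was the only member with an unadjusted p under 0.05 among 23 genes of autophagy and lysosome, of which 16 were higher and 7 lower (median 0.04). Sesn2, a stress-induced sestrin that restrains mTORC1 (4:132219343-132237812, minus strand), had an FPKM of 1.75, 1.96, 1.12, 1.36 and 2.14 in DEN_CAF_SOR, against 3.17, 3.03, 5.69 and 2.73 in DEN_SOR. Again no DEN_CAF_SOR liver reached the lowest DEN_SOR liver, and the difference was -0.78 ± 0.23, with -1.16 within the libraries numbered 3 and 4 and -0.48 within the others.

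Trib3, a pseudokinase gene that ATF4 induces (2:152179342-152185952, minus strand), had an FPKM of 9.18, 8.20, 9.89, 11 and 8.07 in DEN_CAF_SOR, against 13.5, 11.3, 13.9 and 26.9 in DEN_SOR. These also did not overlap, with DEN_SOR 4 far above the others (-0.69 ± 0.30, and -0.44 without DEN_SOR 4). Sesn2 and Trib3 were the 2 members with an unadjusted p under 0.05 among 16 tested genes of the integrated stress response, whose median was -0.06 with 7 higher and 9 lower. Ddit3, the transcription factor CHOP of the same response, was at 7.06, 7.37, 10.1, 11.9 and 4.01 FPKM in DEN_CAF_SOR and at 8.71, 9.90, 18.8 and 17.1 in DEN_SOR, which overlap (-0.69 ± 0.40). The 23 genes of ER chaperones and the unfolded protein response had 0 members at that level and a median of -0.07. Tbc1d7, a subunit of the TSC complex that restrains mTORC1 (13:43305216-43324977, minus strand), lay the other way, at 2.30, 1.59, 2.65, 2.06 and 2.29 FPKM in DEN_CAF_SOR, against 1.44, 1.44, 1.25 and 1.08 in DEN_SOR. Its difference of 0.46 ± 0.11 had the smallest unadjusted p among the genes named as higher, again without overlap.

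**Figure D2:**
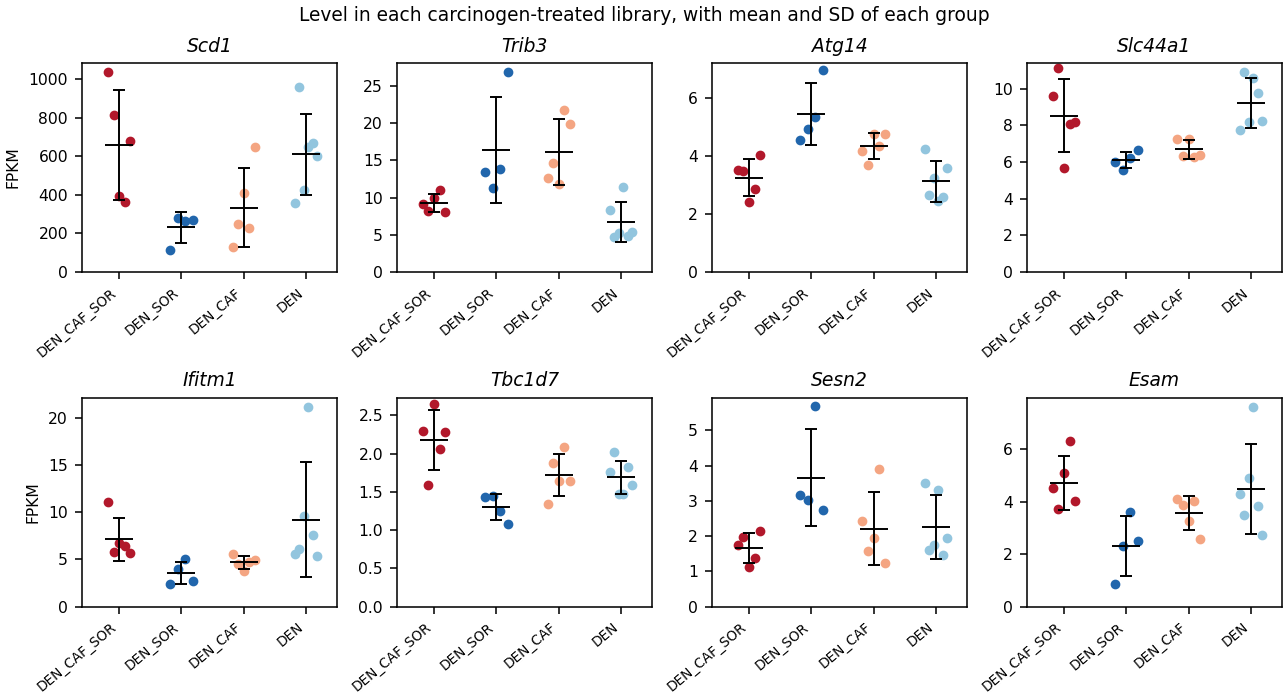
FPKM of Scd1, Trib3, Atg14, Slc44a1, Ifitm1, Tbc1d7, Sesn2 and Esam by library, with the mean and SD of DEN_CAF_SOR (n = 5), DEN_SOR (n = 4), DEN_CAF (n = 5) and DEN (n = 6). The DEN_CAF_SOR and DEN_SOR points do not overlap for these genes except Slc44a1, and for Trib3 the DEN_CAF points lie above all DEN points.

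The study also holds caffeine without sorafenib, which shares no library with the comparison above. The difference DEN_CAF minus DEN was therefore set beside DEN_CAF_SOR minus DEN_SOR, and the difference of the 2 differences was tested for each gene. By limma 0 genes (0%) passed (smallest adjusted p 0.396), 594 (4.68%) had an unadjusted p under 0.05, edgeR called 0 (693 at that level) and DESeq2 called 10 (0.0789%, 779 at that level). The limma count of 594 was 1043 without DEN 3 and 1021 without DEN_SOR 2, and with other single libraries left out it lay between 452 and 804. Of the 535 genes at unadjusted p under 0.05 with sorafenib, 199 had the same sign without it. Of the 359 genes (2.83%) at that level for DEN_CAF minus DEN, 145 had the same sign with sorafenib. Across the 12685 genes the 2 differences had a Pearson r of -0.168 and a Spearman rho of -0.161, given as a description since genes are not independent replicates.

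Atg14, Trib3, Scd1 and Slc44a1 had caffeine differences of opposite sign with and without sorafenib, and DESeq2 called all 4 for the difference of differences. Atg14 was at 4.19, 3.71, 4.76, 4.34 and 4.76 FPKM in DEN_CAF, against 4.26, 2.67, 3.23, 2.45, 2.58 and 3.60 in DEN. It was thus higher by 0.39 ± 0.13 with caffeine without sorafenib and lower with it (-0.60 ± 0.14), a difference of differences of -0.99 ± 0.19 (limma adjusted p = 0.396; DESeq2 adjusted p = 0.00879). Trib3 was at 12.6, 14.6, 11.9, 21.8 and 19.8 FPKM in DEN_CAF, against 8.29, 4.69, 5.24, 11.4, 4.87 and 5.40 in DEN. All 5 DEN_CAF livers stood above all 6 DEN livers, by 1.19 ± 0.27, and the difference of differences was -1.88 ± 0.40 (limma adjusted p = 0.491).

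Scd1 was at 126, 251, 409, 230 and 648 FPKM in DEN_CAF, against 359, 958, 427, 646, 666 and 602 in DEN. Those groups overlap, the difference was -1.01 ± 0.38, and the difference of differences was 2.49 ± 0.57 (limma adjusted p = 0.491). The median of the 22 genes of fatty acid synthesis was -0.20 for DEN_CAF minus DEN, beside 0.34 with sorafenib. Slc44a1, a choline transporter (4:53440413-53622478, plus strand), was at 9.58, 11.1, 5.68, 8.09 and 8.21 FPKM in DEN_CAF_SOR, against 5.99, 5.56, 6.19 and 6.68 in DEN_SOR. DEN_CAF_SOR 3 lay inside the DEN_SOR range and the other 4 above it (0.40 ± 0.13), while DEN_CAF minus DEN was -0.40, giving a difference of differences of 0.80 ± 0.18. Without DEN_CAF_SOR 3 this was 0.93 with an adjusted limma p of 0.0488, the only limma call among genes over the filter on low values when single libraries were left out.

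Ifitm1, an interferon-induced membrane protein gene, gave 11.1, 5.79, 6.68, 6.42 and 5.64 FPKM in DEN_CAF_SOR, against 2.43, 4.01, 4.99 and 2.72 in DEN_SOR. All DEN_CAF_SOR livers were higher (0.84 ± 0.29), with DEN_CAF_SOR 1 far above the rest, whereas DEN_CAF minus DEN was -0.70. Mterf2, a mitochondrial transcription termination factor family gene, differed by 0.88 for DEN_CAF minus DEN. For DEN_CAF_SOR minus DEN_SOR it differed by -0.07 ± 0.16, a value that changed sign without DEN_SOR 4. DESeq2 also called Sult2a1, a female-biased sulfotransferase of steroids and bile acids. Its FPKM was 5.81, 0.899, 6.17, 1.42 and 1.88 in DEN_CAF_SOR, against 516, 10.3, 11.6 and 9.47 in DEN_SOR, so a single liver held nearly all of the DEN_SOR signal. In DEN_CAF it was at 675 FPKM in DEN_CAF 5 and at 0.310 to 99.5 in the other 4, against 0.104 to 8.46 in DEN. The other DESeq2 calls were Mterf2, the related Sult2a2 and 3 clone-named genes.

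**Figure D3:**
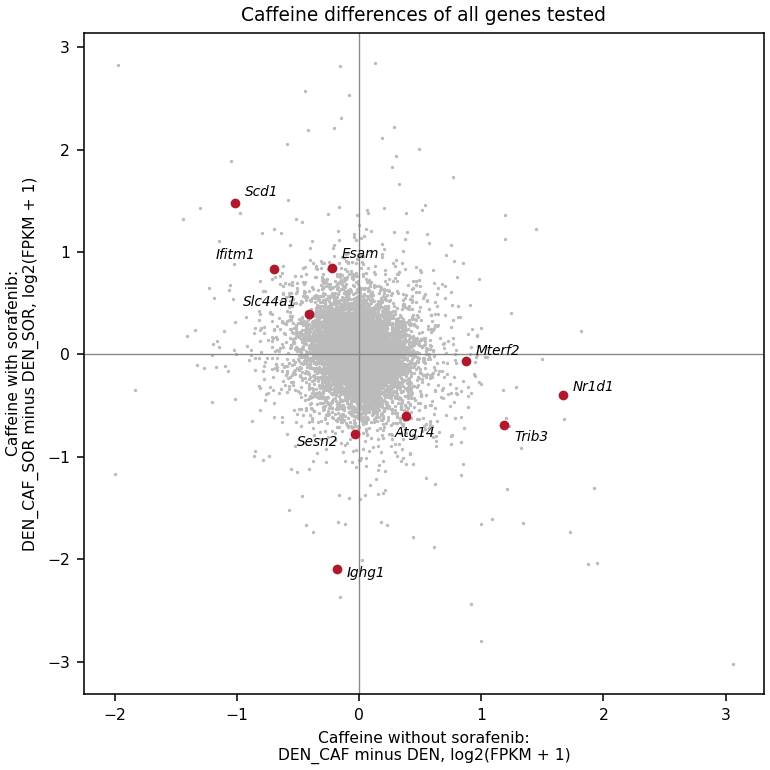
Each point is 1 of 12685 genes, with the log2 difference DEN_CAF_SOR minus DEN_SOR on the vertical axis and DEN_CAF minus DEN on the horizontal axis; labelled genes are named in the text. Scd1 and Slc44a1 lie at the upper left and Trib3 and Atg14 at the lower right, where the 2 differences have opposite signs.

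The other genes named for their small unadjusted p had varied roles. Ptcd1, a mitochondrial RNA-binding protein, was at 3.82, 3.59, 4.52, 4.42 and 2.92 FPKM in DEN_CAF_SOR and at 4.81, 5.27, 5.62 and 6.77 in DEN_SOR, without overlap (-0.45 ± 0.12). Polrmt, the mitochondrial RNA polymerase, lay above every DEN_SOR liver in each DEN_CAF_SOR liver, at 4.85, 4.74, 6.44, 5.30 and 5.35 FPKM, against 3.42, 4.56, 4.15 and 3.88 in DEN_SOR (0.34 ± 0.10). Of the 19 tested genes of mitochondrial DNA expression 14 were higher and 5 lower, with a median of 0.10. Further genes higher in DEN_CAF_SOR were Pcif1, an mRNA cap methyltransferase (0.29), Rpp30, a ribonuclease P subunit (0.39), Med30, a Mediator subunit (0.60), Sin3b, a corepressor (0.33), and Acyp2, an acylphosphatase (0.71). Further genes lower were Polr3b, an RNA polymerase III subunit (-0.38), Ints3, an Integrator subunit (-0.31), Cd320, the receptor for transcobalamin-bound vitamin B12 (-0.54), Vps37c, an ESCRT subunit (-0.48), Mafk, a small Maf transcription factor (-0.51), and Sorbs3, the adhesion adaptor vinexin (-1.04).

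Endothelial genes stood higher as a group when caffeine was added. All 13 tested markers of endothelium were higher in DEN_CAF_SOR with a median of 0.61, and 10 had an unadjusted p under 0.05, where 2.36% of all genes were higher at that level. Kdr, the vascular endothelial growth factor receptor that sorafenib inhibits (5:76093487-76139118, minus strand), had an FPKM of 2.85, 3.58, 1.84, 2.44 and 3.82 in DEN_CAF_SOR, against 0.552, 2.27, 2.06 and 1.27 in DEN_SOR. DEN_CAF_SOR 3 lay inside the DEN_SOR range and the other 4 above it (0.65 ± 0.23). None of the 13 markers separated the groups fully: 0 had every DEN_CAF_SOR liver above every DEN_SOR liver. Esam, an endothelial cell adhesion molecule (9:37439374-37449615, plus strand), is not among the 13 and was named for its small p. It was at 4.51, 3.72, 5.10, 6.32 and 4.02 FPKM in DEN_CAF_SOR, against 0.846, 2.31, 3.60 and 2.50 in DEN_SOR, without overlap (0.85 ± 0.23). Eng, an endothelial co-receptor for TGF beta family ligands, was at 18, 12.2, 11.4, 20.6 and 12.5 FPKM in DEN_CAF_SOR, against 3.58, 12.3, 15.5 and 7.92 in DEN_SOR (0.67 ± 0.27, and 0.31 without DEN_SOR 1). Stab2, a scavenger receptor of sinusoidal endothelium, differed by 0.18 ± 0.24, from 0.0411 without DEN_SOR 2 to 0.41 without DEN_SOR 4.

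The size of this endothelial difference rested in large part on DEN_SOR 1, the lowest of the 9 livers for 9 of the 13 markers. Summed FPKM of the endothelial markers was 76.4, 65.3, 50.1, 80.9 and 67.7 in DEN_CAF_SOR, against 18.7, 53.2, 62.3 and 39.9 in DEN_SOR, with 51.4 to 65.3 in DEN_CAF and 58.7 to 78.7 in DEN. DEN_SOR 1 and DEN_SOR 4 were therefore below every DEN_CAF and DEN liver, and the DEN_CAF_SOR range took in those of DEN_CAF and DEN. Without DEN_SOR 1 the median over the 13 markers was 0.36 and 1 had an unadjusted p under 0.05. Within the libraries numbered 3 and 4 the median was 0.37, and within the others 0.88. For caffeine without sorafenib it was -0.12. Markers of stellate cells and matrix, the neighbours of sinusoidal endothelium, were higher for 15 of 18 members (median 0.30, largest difference 0.945). Lrat, the enzyme that stores retinol as esters, was the 1 member with an unadjusted p under 0.05, at 0.67 ± 0.26. The median of these markers was 0.14 without DEN_SOR 1, 0.16 without DEN_CAF_SOR 1, 0.18 without DEN_SOR 4 and 0.47 without DEN_SOR 3.

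Interferon-stimulated genes lay the other way. Of 32 tested members 28 were lower in DEN_CAF_SOR and 4 higher, the median was -0.38, and 8 were lower at an unadjusted p under 0.05, where 1.86% of all genes were. Oas1g, of the oligoadenylate synthetases that sense viral RNA (5:121014205-121025676, minus strand), had an FPKM of 10.7, 6.50, 4.19, 5.15 and 4.67 in DEN_CAF_SOR, against 9.13, 12.1, 10.8 and 7.40 in DEN_SOR. DEN_CAF_SOR 1 lay within the DEN_SOR range and the other 4 below it (-0.63). Ifit1, which binds foreign RNA caps, was at 12.5, 21.8, 4.76, 13.4 and 10.8 FPKM in DEN_CAF_SOR and at 21.7, 26.7, 23.7 and 17.7 in DEN_SOR (-0.90 ± 0.33). Mx2, a dynamin-like antiviral GTPase, was at 13.8, 20.8, 6.19, 9.06 and 19.2 FPKM in DEN_CAF_SOR and at 17.0, 25.2, 24.4 and 24.9 in DEN_SOR (-0.79 ± 0.30). Tgtp1, an interferon-induced GTPase that is not among the 32 and was named for its small p, was also lower (-1.01 ± 0.29).

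DEN_CAF_SOR 3 was the lowest of the 9 livers for 23 of the 32 interferon-stimulated genes, and DEN_SOR 2 the highest for 16. Without DEN_CAF_SOR 3 the median was -0.22 with 2 members at an unadjusted p under 0.05, and without DEN_SOR 2 it was -0.23 with 3. Within the libraries numbered 3 and 4 the median was -0.65, and within the others -0.19. The 13 tested genes of MHC class I presentation, which interferons also induce, had a median of -0.22, with 10 lower and none at an unadjusted p under 0.05. That median was -0.08 without DEN_SOR 1, the highest liver for 6 of them, -0.12 without DEN_CAF_SOR 3, the lowest for 7, and -0.35 without DEN_CAF_SOR 1. For caffeine without sorafenib the interferon-stimulated genes had a median of 0.01. Ifitm1, described above, is induced by interferon as well and was higher in every DEN_CAF_SOR liver.

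The immunoglobulin genes Ighg1, Igkc, Jchain and Igha were lower with caffeine added, and they include the single DESeq2 call (0.00789% of genes). Ighg1, the constant region of an IgG heavy chain (12:113288860-113294143, minus strand), had an FPKM of 0.132, 0.236, 0.0206, 0.237 and 0.157 in DEN_CAF_SOR, against 32.5, 2.29, 0.174 and 3.54 in DEN_SOR. DEN_SOR 3 lay within the DEN_CAF_SOR range, and DEN_SOR 1 was far above all others. The limma difference was -2.09 ± 0.56 and the DESeq2 difference -5.98 (adjusted p = 0.0405), while without DEN_SOR 1 the limma difference was -1.17. Igkc, the kappa light chain constant region, was at 22.5, 32.2, 16.3, 13.1 and 11.7 FPKM in DEN_CAF_SOR, against 277, 39.4, 34.6 and 37.8 in DEN_SOR, without overlap (-1.73 ± 0.61, and -1.02 without DEN_SOR 1). Jchain, which joins IgA and IgM into polymers, differed by -1.05 ± 0.35, and Igha, the IgA constant region, by -1.38 ± 0.62. Without DEN_SOR 1 these were -0.60 and -0.70.

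Of 13 B cell and plasma cell markers 7 were tested, 2 higher and 5 lower, with differences from -2.09 to 0.47. Their median was -1.05, and 4 were lower at an unadjusted p under 0.05. Without DEN_SOR 1 the median was -0.60 and 1 member stayed at that level. The B cell surface marker Ms4a1 was under the filter on low values, and the counts refer to secreted immunoglobulin genes for the most part. Constant region genes resemble each other, and how reads were shared between copies was not tested. Markers of Kupffer cells (10 tested, median 0.10), of monocytes and recruited macrophages (4 tested, 0.03), of T and NK cells (4 tested, 0.14) and of neutrophils (4 tested, -0.12) had 0 members at an unadjusted p under 0.05.

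**Figure D4:**
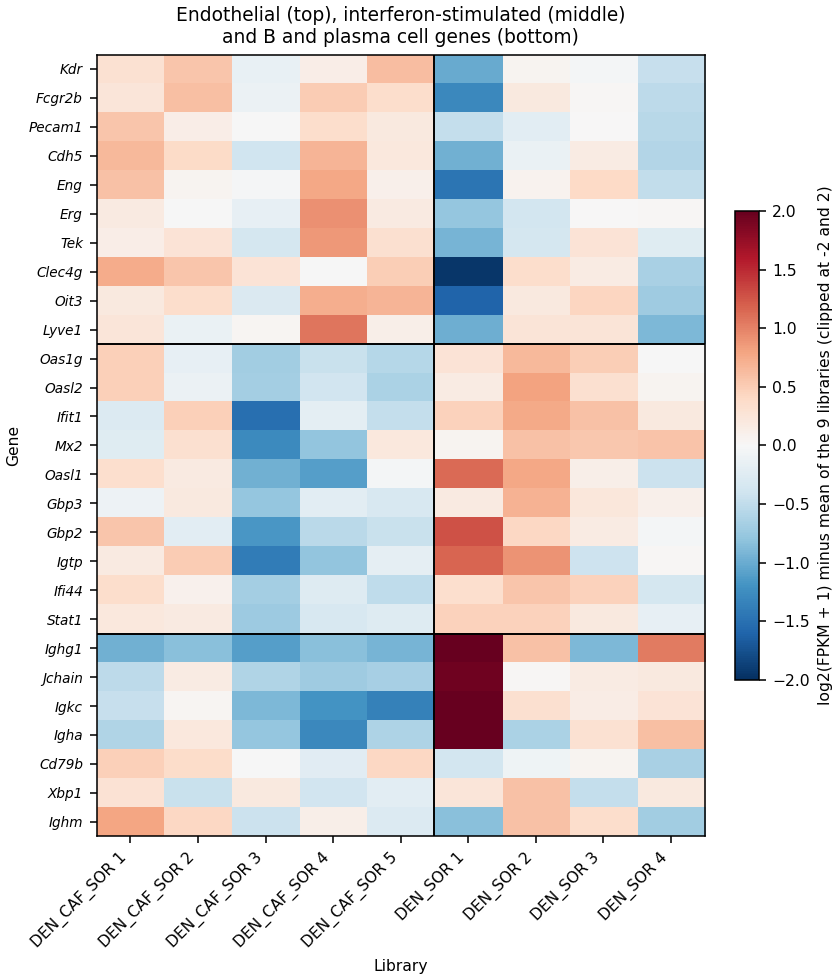
Heat map of log2(FPKM + 1) minus the gene's mean over the 9 libraries, cut at -2 and 2, for 10 endothelial, 10 interferon-stimulated and 7 B and plasma cell genes, with DEN_CAF_SOR libraries left of DEN_SOR libraries. Most endothelial genes are lowest and Ighg1, Jchain, Igkc and Igha highest in DEN_SOR 1, and most interferon-stimulated genes shown are lowest in DEN_CAF_SOR 3; the genes drawn were chosen after their values were seen.

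Markers of ducts and liver tumours tended to lie lower with caffeine added. Of 12 tested cholangiocyte and ductular markers 10 were lower (median -0.42, 2 at an unadjusted p under 0.05), and of 17 oncofetal and liver tumour markers 15 were lower (median -0.37, 2 at that level). DEN_SOR 3 was the highest of the 9 livers for 5 of the ductular markers, and DEN_CAF_SOR 1 for 6 of the oncofetal ones. With single libraries left out the ductular median ran from -0.70 to -0.29. It was -0.48 without DEN_SOR 1, -0.70 without DEN_SOR 4, and -0.64 without DEN_CAF_SOR 1. The oncofetal median ran from -0.59 to -0.27, with -0.32 without DEN_SOR 1, -0.57 without DEN_SOR 2 and -0.59 without DEN_CAF_SOR 1. For caffeine without sorafenib (DEN_CAF minus DEN) the 2 lists differed. The oncofetal median was -0.51, with 14 members lower and 3 higher, and the ductular median was 0.08, with 9 higher and 3 lower. Prom1, a progenitor surface protein that stands in both lists, was at 1.15, 0.475, 0.609, 0.435 and 0.130 FPKM in DEN_CAF_SOR, against 6.15, 1.20, 2.02 and 1.80 in DEN_SOR, without overlap (-1.15 ± 0.51). Ly6d, a surface protein of the Ly6 family, was at 22.5, 4.46, 2.87, 9.89 and 4.14 FPKM in DEN_CAF_SOR, against 133, 17.3, 26.5 and 19.4 in DEN_SOR (-2.14 ± 0.94). Without DEN_SOR 1 Prom1 and Ly6d differed by -0.79 and -1.49, and 0 members of the oncofetal list had an unadjusted p under 0.05.

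Afp, the alpha-fetoprotein of fetal liver and of liver cancer, was at 0.349, 0.726, 2.00, 3.99 and 0.466 FPKM in DEN_CAF_SOR, against 2.53, 0.795, 1.10 and 3.63 in DEN_SOR, which overlap (-0.35 ± 0.94, from -0.65 without DEN_CAF_SOR 4 to -0.11 without DEN_SOR 4). H19, an imprinted fetal RNA, was at 81.5, 14.5, 6.89, 22.2 and 6.71 FPKM in DEN_CAF_SOR, against 23.2, 22.6, 39.4 and 59.2 in DEN_SOR (-0.95 ± 1.06, and -1.50 without DEN_CAF_SOR 1). Neither marker separated the groups. The 14 tested proliferation genes had a median of 0.05 and 0 members at an unadjusted p under 0.05, and Cdkn1a, the cell cycle inhibitor p21, differed by -0.12 ± 0.54.

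Clock genes varied widely among the livers of both groups. The mammalian clock is a loop in which Clock and Bmal1 (Arntl) switch on the Per, Cry and Rev-erb genes and the output factors Dbp, Tef and Hlf, so levels follow the hour of the day. Of 15 tested core clock genes 11 were lower in DEN_CAF_SOR and 4 higher (median -0.21, 1 at an unadjusted p under 0.05), and of 11 output genes 9 were lower (median -0.16, 0 at that level). The output median ran from -0.37 without DEN_SOR 3 to -0.08 without DEN_SOR 2. The clock proteins bind the E-box CACGTG, and Dbp, Tef and their repressor Nfil3 bind the D-box, of which TTATGTAA is a form. Promoters of Ciart and Per3 are shown because these motifs recur in them and because both genes were high in the same livers as Dbp. They are RefSeq sequences of GRCm38.p6, 250 bases before to 50 after the start, both on the minus strand, with E-boxes (Ciart) or D-boxes (Per3) in capitals.
Ciart (chr3:95882179-95882478): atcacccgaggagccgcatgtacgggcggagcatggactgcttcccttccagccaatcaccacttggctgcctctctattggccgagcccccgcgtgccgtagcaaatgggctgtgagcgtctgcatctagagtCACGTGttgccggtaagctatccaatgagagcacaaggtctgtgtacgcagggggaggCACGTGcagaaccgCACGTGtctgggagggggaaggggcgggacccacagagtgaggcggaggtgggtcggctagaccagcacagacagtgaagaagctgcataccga
Per3 (chr4:151044616-151044915): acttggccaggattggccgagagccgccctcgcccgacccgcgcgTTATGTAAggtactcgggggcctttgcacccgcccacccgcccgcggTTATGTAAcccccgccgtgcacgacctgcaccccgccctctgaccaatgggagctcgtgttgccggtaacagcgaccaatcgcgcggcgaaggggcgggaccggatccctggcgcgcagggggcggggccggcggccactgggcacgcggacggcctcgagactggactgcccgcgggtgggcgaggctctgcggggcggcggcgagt

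Ciart held 3 E-boxes, at positions -116, -58 and -44 from the start, and Per3 2 D-boxes, at -205 and -158. The E-box stood in 7.15% of 32851 promoter windows of the same length and in 7 of 31 windows of the core clock and output genes (22 of 29 symbols matched). The D-box form TTATGTAA stood in 0.938% of all windows and in 1 of those 31, that of Per3 itself. Both strands were searched. These matches describe letters in a window, and the genes to print were chosen after their values were seen.

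Ciart, a repressor of the clock, was at 0.455, 0.425, 25.6, 4.00 and 0.463 FPKM in DEN_CAF_SOR, against 14.2, 7.60, 0.576 and 3.17 in DEN_SOR. Per3, a period gene, was at 0.571, 0.564, 6.98, 1.75 and 0.315 FPKM in DEN_CAF_SOR, against 5.84, 3.75, 0.427 and 3.03 in DEN_SOR. Dbp was at 7.86, 5.27, 70.3, 26.3 and 1.38 FPKM in DEN_CAF_SOR, against 53.4, 52.3, 1.81 and 96.3 in DEN_SOR. In all 3, DEN_CAF_SOR 3 and 4 stood with DEN_SOR 1, 2 and 4 at the high end, and DEN_CAF_SOR 1, 2 and 5 with DEN_SOR 3 at the low end. Arntl lay in the opposite order, at 3.21, 3.70, 0.0638, 2.02 and 5.18 FPKM in DEN_CAF_SOR and at 1.01, 0.548, 4.42 and 1.19 in DEN_SOR. Cry2, a cryptochrome that represses Clock and Bmal1, was the core clock gene with an unadjusted p under 0.05, at 4.16, 3.68, 5.81, 3.84 and 4.06 FPKM in DEN_CAF_SOR, against 10.1, 5.47, 3.64 and 5.80 in DEN_SOR (-0.39 ± 0.18). Without DEN_SOR 1 it was -0.16, and within the libraries numbered 3 and 4 it was 0.0304. The difference for Nr1d1, the nuclear receptor Rev-erb alpha, was -0.39 with sorafenib and 1.67 for DEN_CAF minus DEN, a difference of differences of -2.07. The first of these ran from -1.004 without DEN_SOR 3 to -0.0374 without DEN_SOR 4. The part of sampling hour in any of these results was not tested.

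**Figure D5:**
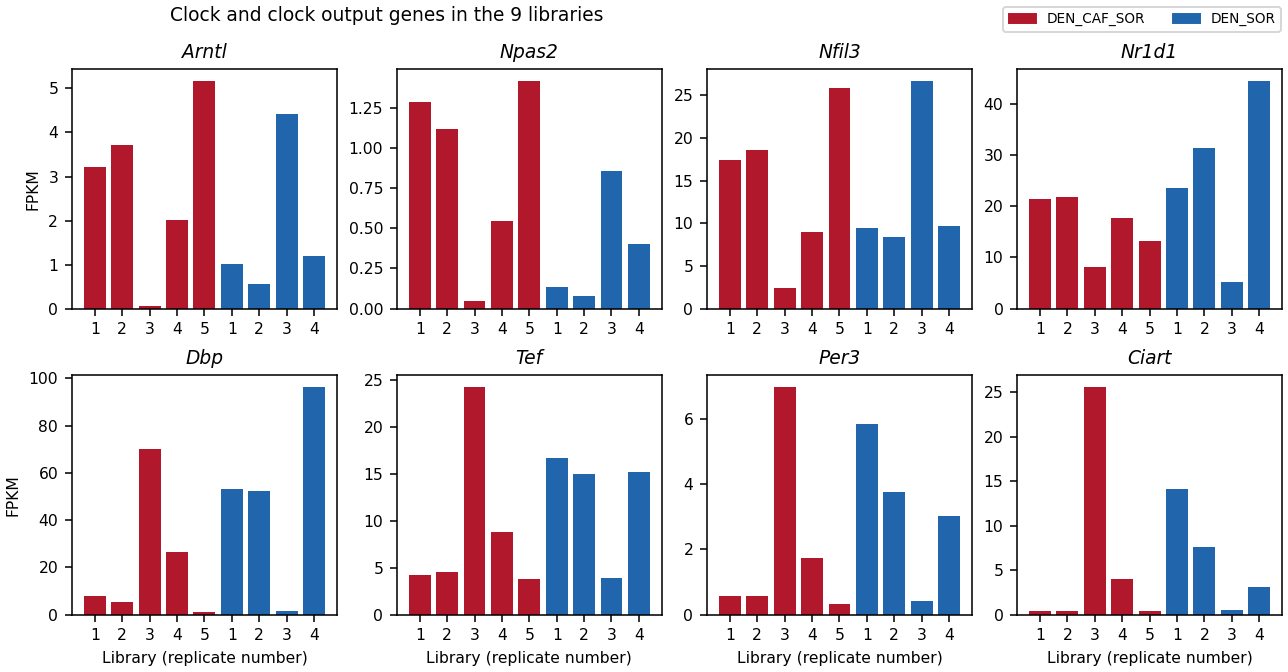
FPKM of 8 clock genes in the 5 DEN_CAF_SOR and 4 DEN_SOR libraries, 1 bar per library from 0. Dbp, Ciart, Per3 and Tef are high in DEN_CAF_SOR 3 and in DEN_SOR 1, 2 and 4, and Arntl, Npas2 and Nfil3 are low in DEN_CAF_SOR 3.

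Respiratory chain genes of the nucleus and of mitochondrial DNA lay on opposite sides. Of 28 tested nuclear genes 27 were higher in DEN_CAF_SOR (median 0.24, 2 at an unadjusted p under 0.05), and all 15 tested mitochondrially encoded genes were lower (median -0.34, 0 at that level). Sdhb, a subunit of succinate dehydrogenase, was at 80.0, 79.3, 122, 124 and 108 FPKM in DEN_CAF_SOR, against 57.9, 98.4, 74.2 and 79.8 in DEN_SOR (0.40 ± 0.18). The mitochondrial share of reads averaged 11.2% ± 5.67 in DEN_CAF_SOR and 15.8% ± 13 in DEN_SOR (SD, n = 5 and 4; exact permutation test, two-sided, p = 0.667, smallest possible 0.0159). The direction of the mitochondrially encoded genes turned without DEN_SOR 4, which had 34.8% mitochondrial reads. Then 14 of the 15 were higher and the median was 0.24, and with other single libraries left out it ran from -0.64 without DEN_SOR 1 to -0.09 without DEN_CAF_SOR 1. Of 33 ribosomal protein genes 31 were higher, with a median of 0.16 and 0 at an unadjusted p under 0.05. DEN_CAF_SOR 3 was the highest of the 9 livers for 25 of them, and without it 23 were higher with a median of 0.06, while without DEN_CAF_SOR 2, the lowest for 11, the median was 0.24.

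Sex-biased liver genes had wide median differences and no member at an unadjusted p under 0.05. Major urinary proteins, pheromone carriers that male liver secretes, were higher in DEN_CAF_SOR for 18 of 19 members (median 1.74). Male-biased genes were higher for 20 of 20 (median 0.81) and female-biased genes lower for 26 of 27 (median -0.96). Mup20, a male pheromone carrier, was at 1095, 1110, 205, 1241 and 427 FPKM in DEN_CAF_SOR, against 13.7, 1175, 939 and 56.4 in DEN_SOR, so DEN_SOR 1 and DEN_SOR 4 lay below the DEN_CAF_SOR range and DEN_SOR 2 and DEN_SOR 3 inside it. DEN_SOR 1 was the lowest of the 9 livers for 17 of the 19 major urinary proteins and the highest for 21 of the 27 female-biased genes. Without it the medians were 0.55, 0.61 and -0.44. DEN_SOR 1 had 4 reads of Xist, which silences one X chromosome in females, and the 9 livers had 0 to 21 each. In a fit of these 9 livers alone, 3 male-biased genes were higher and 8 female-biased genes lower at an unadjusted p under 0.05. The fit over all 25 libraries also holds the Untreated group, where 3 of 5 libraries labelled male had 13370 to 29770 Xist reads. Major urinary protein genes are near-identical copies, so values of single members are uncertain.

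Among the lists not yet described, the CAR and PXR targets, nuclear receptor targets of drug metabolism, had a median of 0.24, with 15 of 25 higher and 10 lower. The exocrine pancreas and mesothelium lists had 1 tested member each, at 0.34 and -0.26. Of 67 lists with 1165 symbols, of which 964 were tested, 36 had 0 members at an unadjusted p under 0.05, among them bile acid synthesis, insulin signalling and FoxO, acute phase, heat shock, NRF2 targets and periportal genes. With 0 genes called by limma, these data give sizes and ranges for the effect of adding caffeine to sorafenib, and a difference that did not pass the test is not shown to be absent.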

How the data were processed

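Mouse liver RNA-seq libraries were grouped by their titles, each library being a separate mouse per the labels. Reads were aligned with HISAT2 2.0.5 and counted with featureCounts 1.5.0-p3 on GRCm39, per the submitters' processing notes. RNA was extracted with QIAzol and RNeasy and made into libraries with a SMARTer kit, per the labels' protocols. Annotation release and strandedness: not given in the sources used here. Genes that overlap, or lie antisense to each other, are therefore uncertain. Although the deposited files carry FPKM in their names, their columns hold a signal, namely whole reads divided by 1 size factor for the library: 100% of values came out whole within 0.01 read. Since the authors scaled each group's table on its own, the reads were recovered, and FPKM was computed from them with the tables' gene length and TMM library sizes. The tables map to the 25 libraries with 0 columns left over.

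Of 30524 genes listed, 24774 stood in all 5 tables and 5750 did not. Testing was limited to the 12685 reaching 1 FPKM in 4 or more libraries. It used limma 3.58.1 (R 4.3.3) on log2(FPKM + 1), a scale on which the change of low genes is understated. A single model held all 25 libraries and a coefficient for each group (residual degrees of freedom 20), with a trended eBayes prior. P-values were adjusted by Benjamini-Hochberg over all genes and called at 0.05, two-sided. edgeR 4.0.16 (quasi-likelihood) and DESeq2 1.42.0 were run on the recovered reads, and SciPy 1.17.1 gave the exact permutation tests. The limma step was tested on simulated data. Within DEN_CAF_SOR and within DEN_SOR, all 16 pairs of libraries differed beyond counting error, so none was the same library sequenced again. Separate libraries made from 1 mouse can differ beyond counting error too, so this does not show that each came from its own mouse. The other groups were not checked in this way.

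The comparison, the 67 gene lists and the alternatives were chosen with earlier results of these data known. Genes were named by rule: the 12 protein-coding genes per direction with the smallest unadjusted p, at least 1 FPKM on average in a group and all DEN_CAF_SOR libraries to one side of the DEN_SOR mean, the member with the smallest unadjusted p of each list, 13 fixed genes, and the 3 leading genes per direction of the difference of differences. Other list members were named after their values were seen. Of 1165 list symbols, 964 were tested, 183 were under the filter, 4 were not in all tables and 14 had no such symbol. Alternatives changed scaling, pseudocount, filter, tool, libraries and covariates. Coordinates are those of the tables.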

Additional observations from a re-analysis of the deposited data

Results flagged for a closer look

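In 7 of 194 groups of values looked at, 1 library stood far from the others of its group, and chance gives about 1 in 20. DEN_CAF_SOR 3 accounts for 3 of them. In that library Alas2, the heme synthesis enzyme of red cell precursors, was at 7.41 FPKM against 30.4 to 46.8 in the other DEN_CAF_SOR libraries. Foxo3, a stress-responsive transcription factor, was at 6.35 there, against 3.70 to 4.12, and Cry2 at 5.81, against 3.68 to 4.16. DEN_CAF_SOR 1 had 11.1 FPKM of Ifitm1, against 5.64 to 6.68 in the others, and DEN_CAF_SOR 4 had 13.9 FPKM of Fabp4, a fatty acid carrier of adipocytes and endothelium, against 2.59 to 3.98. In DEN_SOR, Scd1 was at 112 FPKM in DEN_SOR 1, against 266 to 280 in the other 3 libraries, and Tef was at 3.90 in DEN_SOR 3, against 15 to 16.7. The values of Scd1 without DEN_SOR 1 are given above with that gene.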

How the results depend on the processing

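The count of 0 genes called for DEN_CAF_SOR minus DEN_SOR held under all alternatives except 2. Without a filter on low values 1 gene was called (Gm5575, -0.60, limma adjusted p = 0.00728, at most 0.134 FPKM in DEN_CAF_SOR and 0.269 to 0.809 in DEN_SOR), and DESeq2 called 1 (Ighg1). The count of 0 for the difference of differences became 2 without the filter and 10 with DESeq2, and with single libraries left out it ran from 0 to 1. Same-numbered libraries correlated at 0.16, 0.21, -0.17 and 0.37 for numbers 1 to 4, so not every pair exceeded 0.1 and the numbers were not taken as pairs, though 3 of the 4 DEN_CAF_SOR libraries correlated best with their own number. The replicate block gave 0 calls for both (540 and 614 genes at unadjusted p under 0.05). Leaving out single libraries moved the 535 genes at that level between 392 and 1028 (without DEN_SOR 2), and libraries not numbered 3 or 4 gave 1143. Without Untreated libraries it was 465.

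Of 95 named genes 19 changed sign somewhere, none of them called. A pseudocount of 0.1 gave Cry1 0.0194, and the mitochondrial share as covariate gave Afp 0.0087. Libraries numbered 3 and 4 alone gave Nr1d2 0.34, Tef 0.82, Alas2 -0.12, Marco 0.79, Slc30a10 -0.48, Pck1 0.31, Mylpf 0.16, Sc5d -0.0662, Cyp1a2 -0.14, Foxo3 0.12, Afp 0.31 and Cry2 0.0304. The others alone gave Cry1 0.23, Retnlg 0.39, Cdkn1a 0.38, Nr0b2 0.11, Adora1 0.0354, Mterf2 0.0945 and Msln 0.36. With single libraries left out, Cry1 ran from -0.23 to 0.27, Cdkn1a from -0.52 to 0.31, Marco from -1.20 to 0.0431, Adora1 from -0.13 to 0.0324, Mylpf from -0.27 to 0.0715, Msln from -0.48 to 0.0885, Retnlg from -0.43 to 0.0485, Mterf2 from -0.17 to 0.0282, and the difference in mitochondrial share from -7.40 to 1.75 percentage points. The causes were not tested.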

Other observations

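Slc40a1, Smad7, Gata4 and Klf2 were higher with caffeine added, none called by limma, each with an unadjusted limma p under 0.05. Slc40a1, the iron exporter ferroportin, was at 15, 19.8, 13.2, 12.1 and 11 FPKM in DEN_CAF_SOR, against 10.4, 15.3, 7.33 and 6.15 in DEN_SOR (0.54 ± 0.24). Smad7, an inhibitor of BMP and TGF beta signalling that lowers hepcidin, was at 3.25, 4.68, 6.24, 2.43 and 1.98 FPKM in DEN_CAF_SOR, against 2.14, 1.60, 1.69 and 2.26 in DEN_SOR (0.62 ± 0.27). Both pairs of groups overlap. The 18 tested genes of iron handling had a median difference of 0.19, with 12 higher and 6 lower.

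Gata4, a transcription factor of liver endothelium, stellate cells and hepatocytes, was at 3.79, 4.11, 2.28, 3.09 and 3.86 FPKM in DEN_CAF_SOR, against 0.562, 2.85, 1.39 and 1.90 in DEN_SOR (0.78 ± 0.28), with DEN_SOR 1 lowest as for the endothelial markers. Klf2, a factor that blood flow induces in endothelium, was at 4.09, 3.19, 4.53, 5.65 and 4.16 FPKM in DEN_CAF_SOR, against 1.71, 2.98, 3.31 and 2.53 in DEN_SOR (0.56 ± 0.22). DEN_CAF_SOR 2 lay within the DEN_SOR range of Klf2 and the other 4 above it. These genes were named after their values were seen.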
